A study of Mus musculus with 12 samples.

Results

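Transcripts of the immunoglobulin genes were counted in RNA-seq libraries of whole liver from 12 C57BL/6 mice, all 5 months old, with 3 mice in each of 4 groups. The groups were Shp Hep-/- mice on HFCF, WT mice on HFCF, Shp Hep-/- mice on Chow and WT mice on Chow, with the names as the labels give them. Shp Hep-/- mice (here KO) lack Shp in hepatocytes. Shp is a nuclear receptor with no DNA-binding domain that represses other receptors, and its gene is listed as Nr0b2. The labels do not name the Cre driver or expand HFCF, and livers were taken whole, so every cell type present contributed RNA. The members are the rows of the deposited count table whose symbol names an immunoglobulin heavy, kappa or lambda segment, or Igj, the joining chain of polymeric antibodies. They were chosen by symbol, with earlier results of these data known, and number 78 of the 15846 rows. They are 4 heavy constant genes, 13 heavy V segments, the kappa constant gene Igkc, 53 kappa V segments, 2 kappa J segments, 2 lambda constant genes, 2 lambda V segments and Igj.

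An antibody is built from heavy and light chains, and each B cell assembles 1 V segment with shorter segments and a constant gene for each chain. Naive B cells carry the constant gene for IgM, class switching replaces it with one for IgG or another isotype, and plasma cells secrete the product at very high transcript levels. Rearrangement of these genes takes place in lymphocytes of the B lineage, so in liver rearranged transcripts mark such cells. The counts do not separate rearranged from other transcripts of the constant genes. Igj lies outside the antibody loci, so the argument from rearrangement does not extend to it. The light chain of mouse antibody is mostly kappa, with a small share of lambda. In the mouse the heavy locus lies on chromosome 12, the kappa locus on chromosome 6, the lambda locus on chromosome 16 and the J chain gene on chromosome 5.

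The sequences below were read from GENCODE M21 transcripts on GRCm38, the assembly that mm10 names. Shown first are the 3′ ends of V segments that led the member V rows in a KO liver or differed between diets within KO. The capitals mark the codon of the conserved cysteine after which the third complementarity-determining region begins. The heavy V ends lie on the minus strand at chr12:115335082-115335141 (Ighv1-59), chr12:114583569-114583628 (Ighv1-9) and chr12:115193675-115193734 (Ighv1-54). The kappa V ends lie at chr6:68256810-68256869 on the plus strand (Igkv14-111), chr6:68736297-68736356 on the minus strand (Igkv19-93), chr6:70143593-70143652 on the minus strand (Igkv8-28) and chr6:70573171-70573230 on the plus strand (Igkv3-10).
Ighv1-59: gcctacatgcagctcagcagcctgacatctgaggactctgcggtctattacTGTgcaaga
Ighv1-9: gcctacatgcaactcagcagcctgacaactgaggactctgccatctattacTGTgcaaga
Ighv1-54: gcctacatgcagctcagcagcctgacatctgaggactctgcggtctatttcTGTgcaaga
Igkv14-111: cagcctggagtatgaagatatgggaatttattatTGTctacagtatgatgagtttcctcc
Igkv19-93: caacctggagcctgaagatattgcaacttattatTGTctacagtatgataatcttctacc
Igkv8-28: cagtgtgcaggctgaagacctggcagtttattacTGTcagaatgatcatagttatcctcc
Igkv3-10: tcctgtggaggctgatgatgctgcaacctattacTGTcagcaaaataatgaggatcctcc

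The hinge exons of the IgG heavy chain genes are shown because the results differ between these subclasses, and the hinge is where their sequences diverge most visibly. The capitals mark in-frame cysteine codons, which supply the bridges between heavy chains. They lie on the minus strand at chr12:113329844-113329882 (Ighg1), chr12:113307261-113307326 (the row that the table names Ighg, whose identifier GENCODE gives as Ighg2b) and chr12:113288263-113288325 (Ighg2c).
Ighg1: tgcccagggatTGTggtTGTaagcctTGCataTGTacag
Ighg (Ighg2b): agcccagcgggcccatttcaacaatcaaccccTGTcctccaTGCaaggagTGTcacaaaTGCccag
Ighg2c: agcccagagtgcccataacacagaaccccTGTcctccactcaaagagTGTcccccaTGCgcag

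In the deposited table (mm10) the constant genes are annotated as follows. Igkc lies at chr6:70726435-70726757 on the plus strand, and on the minus strand Ighm lies at chr12:113420867-113422730, Ighg1 at chr12:113328976-113330523, Ighg (Ighg2b) at chr12:113306389-113307933 and Ighg2c at chr12:113285325-113288930. Iglc2 lies at chr16:19198401-19200351, Iglc3 at chr16:19065234-19067173 and Igj at chr5:88520512-88527891, all 3 on the minus strand. The row of Iglc3 also covers the neighbouring segment Iglj3, and that of Iglc2 covers Iglj2.

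Near-identical copies limit how far a single segment can be read. The annotated transcript of Ighv1-59 was 96.9% identical to Ighv1-69, and 36.8% of its stretches of 50 bases also occurred in another annotated immunoglobulin gene. For Igkv3-10 that share was 53.5%, with 98.3% identity to Igkv3-5. For Igkv8-28, which was 97.6% identical to Igkv8-19, it was 18.1%. It was 0.0% for Igkv14-111, Igkv19-93, Igkc and Ighm, 0.4% for Ighg1, and 6.0% for Ighg2c, whose closest gene was Ighg2b at 87.8% identity. How reads matching several segments were counted is not given in the sources used here, so levels of the segments with shared stretches are uncertain.

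Libraries held 13967116 to 18324134 counts. CPM are counts scaled to library size with TMM factors, FPKM are the authors' length-scaled values, ± is the SD over 3 livers for a level and the standard error for a log2 fold change, and adjusted p is edgeR's quasi-likelihood value with Benjamini-Hochberg adjustment over all 14736 genes tested. Nr0b2 averaged 0.371 ± 0.15 CPM in KO HFCF livers and 50.2 ± 3.0 in WT HFCF livers, and 0.778 ± 0.23 in KO chow livers and 34.3 ± 14 in WT chow livers. A filter on low counts kept 45 of the 78 members. Every row of the table reaches 10 counts in at least 1 library, and all 78 members did so in a KO liver while 4 of them (Igj, Igkc, Ighg and Ighm) did so in a WT liver. The presence of the other members in the table therefore rests on the KO livers, and the counts of members higher in KO are given as a description and support nothing further.

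KO livers carried far more immunoglobulin RNA than WT livers on either diet. The 78 members together made up 731, 806 and 796 CPM in KO HFCF livers and 10.6, 8.35 and 5.61 CPM in WT HFCF livers. On chow they summed to 1385, 1377 and 1693 CPM in KO livers and to 9.15, 7.57 and 10.3 CPM in WT livers. No KO liver came near a WT liver, and the ratio of group means was 95.1 on HFCF and 165 on chow. A KO chow library held 69 to 71 of the 78 members with at least 1 count and a KO HFCF library 66 or 67, against 16 to 19 in WT HFCF and 20 to 22 in WT chow libraries. In whole liver RNA, fewer cells of a type and less RNA per cell cannot be told apart.

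**Figure D1:**
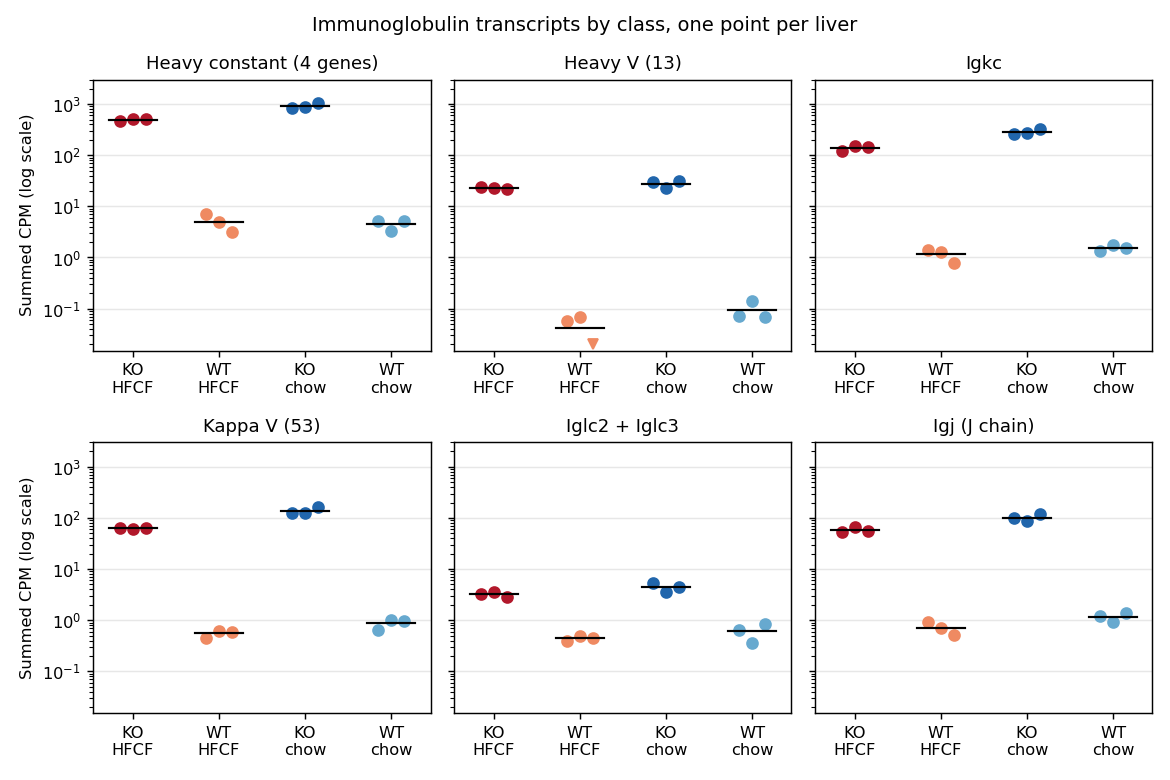
Summed CPM of each class of immunoglobulin gene (log axis), 1 point per liver, with a bar at the group mean and a triangle for a liver at 0 counts. In all 6 classes every KO liver lies above every WT liver, and KO chow livers lie above KO HFCF livers except in the heavy V class and among the lambda constant genes. The heavy V class holds its 13 member rows only and leaves out rows with provisional symbols on other heavy V segments.

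Of the 45 members that passed the filter, 39 were higher in KO than WT on HFCF and 40 on chow, and 0 were lower. Of all genes tested, 10.6% were called higher and 8.52% lower on HFCF, and 9.72% higher and 5.82% lower on chow. With no filter the counts were 43 of 78 on HFCF (9.68% of all rows) and 52 of 78 on chow (9.06%). Every KO liver was above every WT liver in CPM for 56 members on HFCF (18.4% of all rows) and 55 on chow (19.3%). The median log2 fold change over the 72 members with enough counts for a ratio was 3.84 on HFCF, and over 76 members it was 4.15 on chow, where a WT group at 0 was counted as 3. The median over all genes tested was 0.02 on HFCF and 0.00 on chow.

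The IgG constant genes were abundant in KO livers and nearly absent from WT livers. Ighg1, the constant gene of IgG1, had 1757, 2223 and 1776 counts in KO HFCF livers and 0, 1 and 0 counts in WT HFCF livers, a ratio of 5963 with an exact 95% counting interval of 1070 to 235600 (edgeR adjusted p = 4.29e-11). Its 1 WT HFCF count stood in replicate 2, and without that liver the ratio was at least 1386 against a floor of 3 counts. On chow it had 7857, 7325 and 7412 counts in KO livers against 2, 3 and 5 in WT livers, which is 10.92 ± 0.26 on the log2 scale (edgeR adjusted p = 5.54e-12). Every KO liver thus held at least 1757 Ighg1 counts and every WT liver at most 5.

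Ighg2c, the constant gene of the IgG2c subclass that C57BL/6 mice carry, had 1964, 3912 and 4944 counts in KO HFCF livers and 3, 1 and 0 counts in WT HFCF livers. On chow it had 5854, 2145 and 4280 counts in KO livers and 4, 4 and 2 counts in WT livers. Its log2 fold change was 11.29 ± 0.55 on HFCF (edgeR adjusted p = 2.88e-08) and 9.99 ± 0.50 on chow (edgeR adjusted p = 3.43e-08). The row named Ighg (Ighg2b) had 2423, 907 and 1890 counts in KO HFCF livers and 10, 4 and 6 in WT HFCF livers, and 1478, 2708 and 4067 in KO chow livers against 10, 1 and 1 in WT chow livers. Its log2 fold change was 8.07 ± 0.65 on HFCF (edgeR adjusted p = 3.22e-06) and 9.24 ± 0.69 on chow (edgeR adjusted p = 3.2e-06). Single WT livers moved 2 of these values, to 12.44 for Ighg2c on HFCF without WT HFCF replicate 1 (edgeR adjusted p = 3.01e-07) and to 11.12 for Ighg on chow without WT chow replicate 1 (edgeR adjusted p = 4.04e-05). These KO livers differed among themselves by more than they did for Ighg1 on chow, with a ratio of highest to lowest CPM of 2.19 for Ighg2c and 3.13 for Ighg, against 1.16 for Ighg1.

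Ighm, the constant gene of IgM, had the highest count of any member in each of the 6 WT livers. It had 214, 159 and 302 counts in KO HFCF livers and 111, 65 and 43 in WT HFCF livers. On chow it had 290, 322 and 644 counts in KO livers and 55, 38 and 68 in WT livers. The groups did not overlap in CPM on either diet, and Ighm rose in KO by a log2 of 1.67 ± 0.35 on HFCF (edgeR adjusted p = 0.0044) and 2.79 ± 0.35 on chow (edgeR adjusted p = 0.000246). That is 3.19-fold and 6.86-fold in counts scaled to library size.

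The make-up of the heavy constant transcripts differed between the genotypes, described here without a test. Ighm took 2.62%, 1.78% and 2.76% of heavy constant FPKM in the KO HFCF livers, and 86.8%, 89.1% and 84.1% in the WT HFCF livers. On chow its share was 1.46%, 1.93% and 3.01% in KO livers, and 72.5%, 79.0% and 86.5% in WT livers. IgM transcripts led in every WT liver and IgG transcripts in every KO liver. WT libraries held only 46 to 124 heavy constant counts, so their IgG subclass shares cannot be resolved: the Ighg1 share of IgG counts in the WT HFCF livers was 0 of 13, 1 of 6 and 0 of 6 counts. The constant genes of IgA, IgD and IgE were not analysed here.

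**Figure D2:**
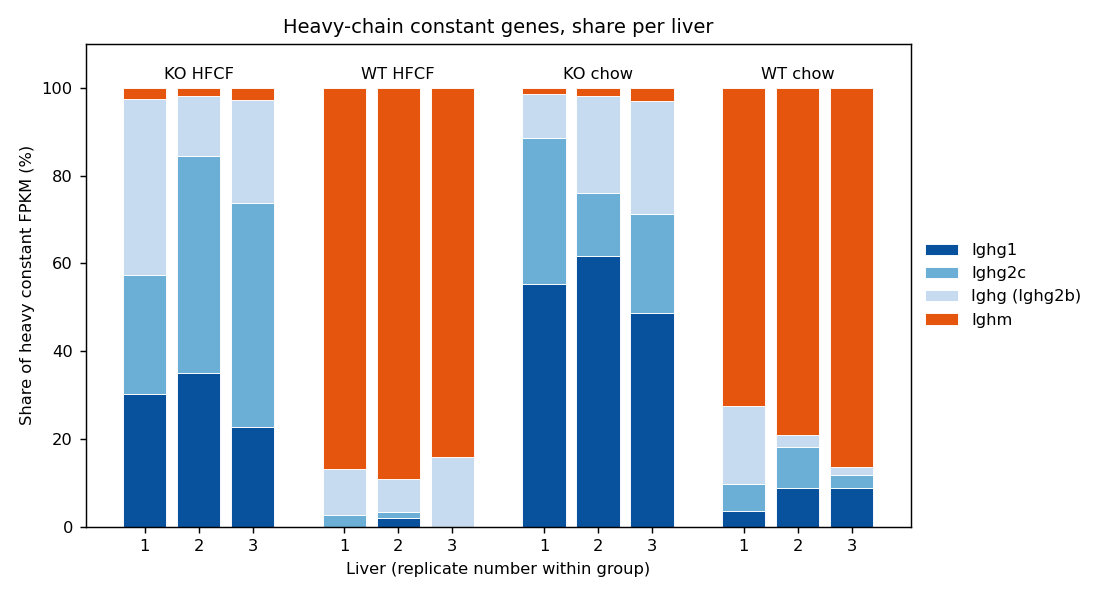
Share of heavy-chain constant FPKM (percent) taken by Ighg1, Ighg2c, Ighg (Ighg2b) and Ighm in each of the 12 livers, by group. Ighm fills 72.5% to 89.1% of each WT bar and 1.46% to 3.01% of each KO bar, and Ighg1 takes a larger part of the KO chow bars than of the KO HFCF bars.

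Among light chains, Igkc, the kappa constant gene, had 1695, 2128 and 2539 counts in KO HFCF livers and 25, 18 and 12 in WT HFCF livers. On chow it had 4737, 3955 and 5279 counts in KO livers and 19, 25 and 22 in WT livers. Every KO liver was above every WT liver, with a log2 ratio of 6.89 ± 0.17 on HFCF (edgeR adjusted p = 1.74e-11) and 7.54 ± 0.17 on chow (edgeR adjusted p = 4.26e-12). In KO chow livers Igkc stood at 917 ± 143 FPKM, the highest length-scaled level of any member, followed by Ighg1 at 492 ± 34.2, and Ighg2c (209 ± 77.7) and Ighg (178 ± 92.3) did not differ beyond their spread.

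The lambda constant genes rose in KO on both diets, with smaller fold changes than Igkc in a difference that was not tested. Iglc2 had 30, 37 and 31 counts in KO HFCF livers and 6, 4 and 4 in WT HFCF livers, and 59, 36 and 51 in KO chow livers against 3, 2 and 5 in WT chow livers. Its log2 fold change was 2.84 ± 0.31 on HFCF (edgeR adjusted p = 4.5e-05) and 3.63 ± 0.32 on chow (edgeR adjusted p = 1.11e-05). Iglc3 had 14, 15 and 19 counts in KO HFCF livers and 1, 3 and 3 in WT HFCF livers (log2 fold change 2.76 ± 0.48, edgeR adjusted p = 0.00141). On chow it had 37, 15 and 20 counts in KO livers and 6, 3 and 7 in WT livers (1.94 ± 0.39, edgeR adjusted p = 0.00514). No Iglc1 row is among the members, so lambda here means Iglc2 and Iglc3. They made up 1.93% to 2.53% of light constant counts in KO HFCF livers and 21.9% to 36.8% in WT HFCF livers, and 1.27% to 1.99% in KO chow livers and 16.7% to 35.3% in WT chow livers. Their rows are longer than that of Igkc. By FPKM their share was 1.06% to 1.38% in KO HFCF and 13.1% to 24.0% in WT HFCF livers. On chow it was 0.691% to 1.09% in KO and 9.86% to 23.0% in WT livers. The WT shares rest on 19 to 34 light constant counts per liver, and the widest Wilson 95% interval, for 1 WT HFCF liver, ran from 19.1% to 59.0%. The 2 genes are 95.4% identical, so reads could be split between them.

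Igj, which links IgM and IgA into polymers and is also made by cells that secrete IgG, had 736, 933 and 1005 counts in KO HFCF livers and 16, 10 and 8 in WT HFCF livers. On chow it had 1778, 1280 and 1854 counts in KO livers and 17, 13 and 20 in WT livers. It rose in KO by a log2 of 6.34 ± 0.18 on HFCF (edgeR adjusted p = 5.27e-11) and 6.42 ± 0.17 on chow (edgeR adjusted p = 1.78e-11), with no overlap of groups.

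The V segments, which supply most of the antigen-binding surface, were almost unseen in WT livers. The 13 heavy V segments together had 324, 323 and 395 counts in KO HFCF livers and 1, 1 and 0 in WT HFCF livers, and 535, 338 and 492 in KO chow livers against 1, 2 and 1 in WT chow livers. The 53 kappa V segments had 866, 862 and 1137 counts in KO HFCF livers and 8, 9 and 9 in WT HFCF livers, and 2278, 1784 and 2651 in KO chow livers against 9, 14 and 14 in WT chow livers. Of all 78 members, 34 had 0 counts in every WT library and 69 had at most 3 in each.

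Igkv14-111 led the 53 named kappa V rows in 5 of 6 KO livers, while Gm16637, a row outside the rule at the position of Igkv10-96, was higher in each. It had 133, 191 and 195 counts in KO HFCF livers and 0, 0 and 2 in WT HFCF livers, and 313, 382 and 280 in KO chow livers against 0, 0 and 2 in WT chow livers. The ratio of KO to WT was 269 on HFCF (exact 95% counting interval 74.1 to 2226, edgeR adjusted p = 3.57e-07) and 429 on chow (118 to 3544, edgeR adjusted p = 8.36e-08). Its WT counts stood in replicate 3 of each diet, without which it was at least 121-fold higher on HFCF and at least 189-fold on chow. It took 15.4% to 22.2% of the kappa V counts of the 3 KO HFCF livers, and no V segment exceeded 4 counts in any WT liver. Igkv1-135 had 111, 16 and 86 counts in KO HFCF livers against 0, 0 and 1 in WT HFCF livers (edgeR adjusted p = 0.000558), and Igkv3-4 had 56, 52 and 57 against 0, 2 and 0 (edgeR adjusted p = 0.00289).

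Ighv1-59 led the 13 named heavy V rows in 4 of 6 KO livers, with 87, 76 and 101 counts in KO HFCF livers and 143, 98 and 213 in KO chow livers, and 0 counts in all 6 WT livers. It was at least 91.2-fold higher in KO on HFCF (edgeR adjusted p = 3.34e-05) and at least 133-fold higher on chow (edgeR adjusted p = 2.7e-05), against a floor of 3 counts over the WT group. Ighv1-85 also had 0 counts in all 6 WT livers, with 42, 41 and 62 counts in KO HFCF livers and 145, 28 and 12 in KO chow livers. It was at least 50.1-fold higher in KO on HFCF (edgeR adjusted p = 0.00798) and at least 54.2-fold higher on chow (edgeR adjusted p = 0.00991). KO chow replicate 1 held most of its chow counts, and without that liver the bound was 18.7-fold. Ighv1-9 had 80, 15 and 119 counts in KO HFCF livers against 0, 0 and 0 in WT HFCF livers, and 114, 11 and 138 in KO chow livers against 1, 0 and 0 in WT chow livers (edgeR adjusted p = 0.00492 and 0.00737). With limma voom Ighv1-9 missed the threshold on chow (adjusted p = 0.0578).

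A few high segments did not pass edgeR's test in 1 genotype comparison, and some other fits called them. The WT livers had 0 counts of them there, so a gap between the groups follows from any count in each KO liver. Igkv19-93 had 16, 36 and 18 counts in KO HFCF livers and 0 in each WT HFCF liver (edgeR adjusted p = 0.0777), while on chow it had 87, 39 and 397 in KO livers and 0 in each WT liver (at least 153-fold higher, edgeR adjusted p = 0.00621). The chow bound was 54.9-fold without KO chow replicate 3. On HFCF it did pass with DESeq2 (adjusted p = 0.000333), with edgeR on the compared groups alone (0.00387) and with the replicate block (0.0448). Its identifier belongs to another segment in GENCODE M21, but its position is that of Igkv19-93. Ighv9-3 had 3, 28 and 4 counts in KO HFCF livers and 0 in each WT HFCF liver (edgeR adjusted p = 0.0687, against 0.00354 with DESeq2 and 0.00937 with the replicate block), and 16, 87 and 89 in KO chow livers against 0, 1 and 1 in WT chow livers (edgeR adjusted p = 0.00697). Ighv1-7 passed on HFCF (11, 59 and 16 counts in KO, 0 in each WT liver, edgeR adjusted p = 0.00629) and not on chow (7, 16 and 8 counts in KO, 0 in each WT liver, edgeR adjusted p = 0.0593, against 0.000812 with DESeq2, 0.013 with limma voom and 0.00594 with the replicate block). On HFCF it was at least 29.7-fold higher in KO, and at least 13.6-fold without KO HFCF replicate 2. The lambda V segment Iglv1 passed on both diets, at 24, 19 and 82 counts in KO HFCF livers against 2, 2 and 1 in WT HFCF livers (edgeR adjusted p = 0.000781), and 75, 24 and 71 in KO chow livers against 1, 0 and 1 in WT chow livers (edgeR adjusted p = 0.000461). Iglv3 passed on both as well, with 35 counts over the KO HFCF livers against 3 over the WT HFCF livers, and 56 over the KO chow livers against 5 over the WT chow livers. Other calls of the main fit were lost. In KO against WT on HFCF, Igkv8-28 missed the threshold with limma voom (adjusted p = 0.129). It also missed without KO HFCF replicate 1 or any 1 of the WT HFCF livers (edgeR adjusted p = 0.0698 to 0.0795). Igkv5-39 missed it there with limma voom (adjusted p = 0.0547).

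Within KO livers the summed immunoglobulin level was lower on HFCF. It was 778 ± 40.7 CPM in KO HFCF livers and 1485 ± 180 CPM in KO chow livers, a ratio of 0.524, and the groups did not overlap. Of the 45 members that passed the filter, 7 fell and 1 rose on HFCF in KO, where 1.18% and 1.47% of all genes tested were called down and up. With no filter the counts over the 78 members were again 7 and 1, against 1.05% and 1.37% of all rows. The groups did not overlap for 13 members lower on HFCF (11% of all rows) and 2 higher (12.8%). The median log2 fold change over all 78 members was -0.84, against 0.00 over all genes.

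Among the IgG genes Ighg1 was the one that passed the test, and whether its change differed from that of the other subclasses was not tested. Its level was 128, 155 and 99.9 CPM in KO HFCF livers and 435, 506 and 467 CPM in KO chow livers, and it fell by 1.88 ± 0.14 on the log2 scale (edgeR adjusted p = 7.35e-06). Ighg2c had 143, 274 and 278 CPM in KO HFCF livers and 324, 148 and 270 CPM in KO chow livers, with overlapping groups and a log2 ratio of -0.10 ± 0.26 (edgeR adjusted p = 0.893). Ighg had 176, 63.4 and 106 CPM in KO HFCF livers and 81.8, 187 and 256 CPM in KO chow livers, with a log2 ratio of -0.60 ± 0.37 (edgeR adjusted p = 0.418). Ighg1 made up 28.6%, 31.6% and 20.6% of the IgG counts of the 3 genes in KO HFCF livers and 51.7%, 60.1% and 47.0% in KO chow livers, so the highest HFCF share lay below the lowest chow share. Per liver these shares rest on 6144 to 15759 IgG counts, and the widest Wilson 95% interval spanned 27.5% to 29.7%.

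Igkc and Igj fell together with Ighg1. Igkc had 123, 149 and 143 CPM in KO HFCF livers and 262, 273 and 333 CPM in KO chow livers, a fall of 1.06 ± 0.11 on the log2 scale (edgeR adjusted p = 0.000181). Igj had 53.5, 65.2 and 56.5 CPM in KO HFCF livers and 98.4, 88.3 and 117 CPM in KO chow livers, a fall of 0.79 ± 0.11 (edgeR adjusted p = 0.00185). Neither set of livers overlapped. Ighm had 15.6, 11.1 and 17.0 CPM in KO HFCF livers and 16.1, 22.2 and 40.6 CPM in KO chow livers, which overlapped, with a log2 ratio of -0.85 ± 0.31 (edgeR adjusted p = 0.156). Iglc2 and Iglc3 had log2 fold changes of -0.47 ± 0.22 and -0.49 ± 0.32 and did not pass (edgeR adjusted p = 0.271 and 0.461).

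**Figure D3:**
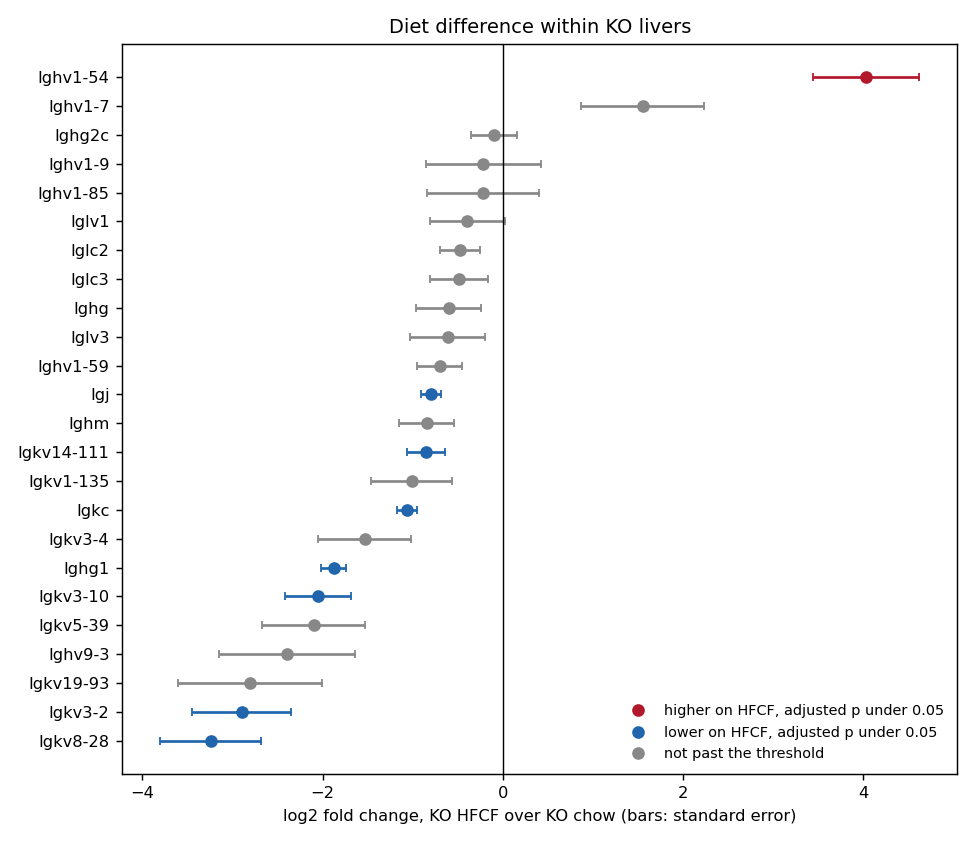
Log2 fold change of KO HFCF over KO chow for the constant genes, Igj and the named V segments, with the standard error as a bar and colour for the call at an adjusted p under 0.05. Ighg1, Igkc and Igj lie left of 0 with short bars, Ighg2c lies at -0.10, and the V segments spread from -3.24 for Igkv8-28 to 4.04 for Ighv1-54.

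Among V segments the diet difference varied from segment to segment. Igkv8-28 had 31, 9 and 17 counts in KO HFCF livers and 261, 267 and 48 in KO chow livers, a log2 ratio of -3.24 ± 0.56 (edgeR adjusted p = 0.00708; 0.0737 with limma voom), and of -3.86 without KO HFCF replicate 1. Igkv3-2 had 3, 4 and 11 counts in KO HFCF livers and 39, 74 and 27 in KO chow livers (-2.90 ± 0.55, edgeR adjusted p = 0.0247), which ran from -3.53 without KO HFCF replicate 3 to -2.30 without KO chow replicate 2. Igkv3-10 had 5, 6 and 7 counts in KO HFCF livers and 40, 20 and 21 in KO chow livers (-2.05 ± 0.37, edgeR adjusted p = 0.0187), and DESeq2 gave it no adjusted p. The calls of these last 2 segments rest on single livers: Igkv3-2 missed the threshold without KO HFCF replicate 1, KO HFCF replicate 2 or KO chow replicate 1 (edgeR adjusted p = 0.106, 0.109 and 0.0521), and Igkv3-10 without any 1 of the KO HFCF livers or without KO chow replicate 1 (edgeR adjusted p = 0.0622 to 0.0883). Igkv14-111 had 9.66, 13.4 and 11.0 CPM in KO HFCF livers and 17.3, 26.4 and 17.6 in KO chow livers, and its fall of 0.85 ± 0.21 on the log2 scale stood at the threshold (edgeR adjusted p = 0.0492) and was lost without any 1 of the 6 livers (edgeR adjusted p = 0.0553 to 0.183). It was also lost with upper quartile scaling, no filter and the stricter filter (edgeR adjusted p = 0.0502 to 0.0504). The call stood with DESeq2 (adjusted p = 0.00401), limma voom (0.0275) and edgeR on the compared groups alone (0.031). Igkv3-2 was also called with DESeq2 (adjusted p = 0.000237) and limma voom (0.0138), and Igkv3-10 with limma voom (0.00445).

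Ighv1-54 was the member that rose on HFCF in KO. It had 23, 40 and 36 counts in KO HFCF livers, 0, 0 and 0 in WT HFCF livers, 0, 1 and 5 in KO chow livers and 0, 1 and 0 in WT chow livers. Its log2 fold change between the diets in KO was 4.04 ± 0.59 (edgeR adjusted p = 0.00396), and it passed under the 13 alternatives that gave it an adjusted p, the highest being 0.0212 by edgeR without KO HFCF replicate 2. Without KO chow replicate 1 the value was 3.40, and without KO chow replicate 3 it was 5.80. DESeq2 gave it no adjusted p, and the stricter filter dropped it. Between genotypes it was at least 34.2-fold higher in KO on HFCF (edgeR adjusted p = 0.000197) and did not pass on chow (edgeR adjusted p = 0.345). The annotated gene closest to it in sequence was Ighv1-63 at 92.9% identity.

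V segments had a higher median spread between livers than the constant genes, with overlapping ranges and no test. Among members averaging at least 20 counts, the median coefficient of variation over 3 livers was 61.0% for 19 V segments and 21% for 7 constant genes, Igj included, in KO HFCF, and 73.6% for 30 V segments and 25.5% for 8 such genes in KO chow. Counting error alone gave medians of 14.4% and 2.40% in KO HFCF and of 13% and 2.19% in KO chow, but in KO HFCF livers Ighv1-59 (8.83%), Ighv1-85 (10.2%) and Igkv3-4 (11.9%) varied by less than their own counting error. The V segments ranged from 8.83% to 136% in KO HFCF and from 25.1% to 163% in KO chow, and the constant genes from 9.70% to 49.3% in KO HFCF and from 7.53% to 50.2% in KO chow. Igkv19-93 had 16, 36 and 18 counts in KO HFCF livers and 87, 39 and 397 in KO chow livers. The KO chow liver with 397 counts, in which Igkv19-93 led the named kappa V rows, set its chow mean. Igkv3-4 (66, 80 and 356 counts in KO chow livers) and Igkv5-39 (71, 44 and 273) were highest in that same liver. In their diet comparison within KO, Igkv19-93 (-2.81 ± 0.80, edgeR adjusted p = 0.0967), Igkv3-4 (-1.54 ± 0.52, edgeR adjusted p = 0.129) and Igkv5-39 (-2.10 ± 0.57, edgeR adjusted p = 0.0639) did not pass. Without KO chow replicate 2, edgeR called Igkv19-93 (adjusted p = 0.0473) and Igkv5-39 (0.026). Igkv5-39 was also called with DESeq2 (adjusted p = 0.00774) and with the replicate block (0.0419).

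Among the named kappa rows, V use was spread over many segments. The top kappa segment took 13.7% to 22.2% of kappa V counts in the 6 KO livers, the top 5 took 48.1% to 55.9%, and the effective number of kappa segments (the exponential of the Shannon entropy of their shares) was 19.9 to 22.5 in KO HFCF livers and 19.9 to 23.7 in KO chow livers. The top heavy segment took 23.5% to 30.1% of the counts of the 13 heavy V rows in KO HFCF livers and 27.1% to 43.3% in KO chow livers. The top 5 of these 13 rows took 75.5% to 88.9% in KO HFCF and 80.5% to 93.7% in KO chow livers. Their effective number was 6.52 to 8.34 in KO HFCF and 4.39 to 7.13 in KO chow livers. Shares of kappa V counts common to 2 livers had a median of 59.8% over 6 pairs on the same diet and 56.9% over 9 pairs on different diets. For heavy V these medians were 59.7% and 61.3%, and for both loci the ranges of the 2 kinds of pair overlapped. WT livers had too few V counts for shares.

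**Figure D4:**
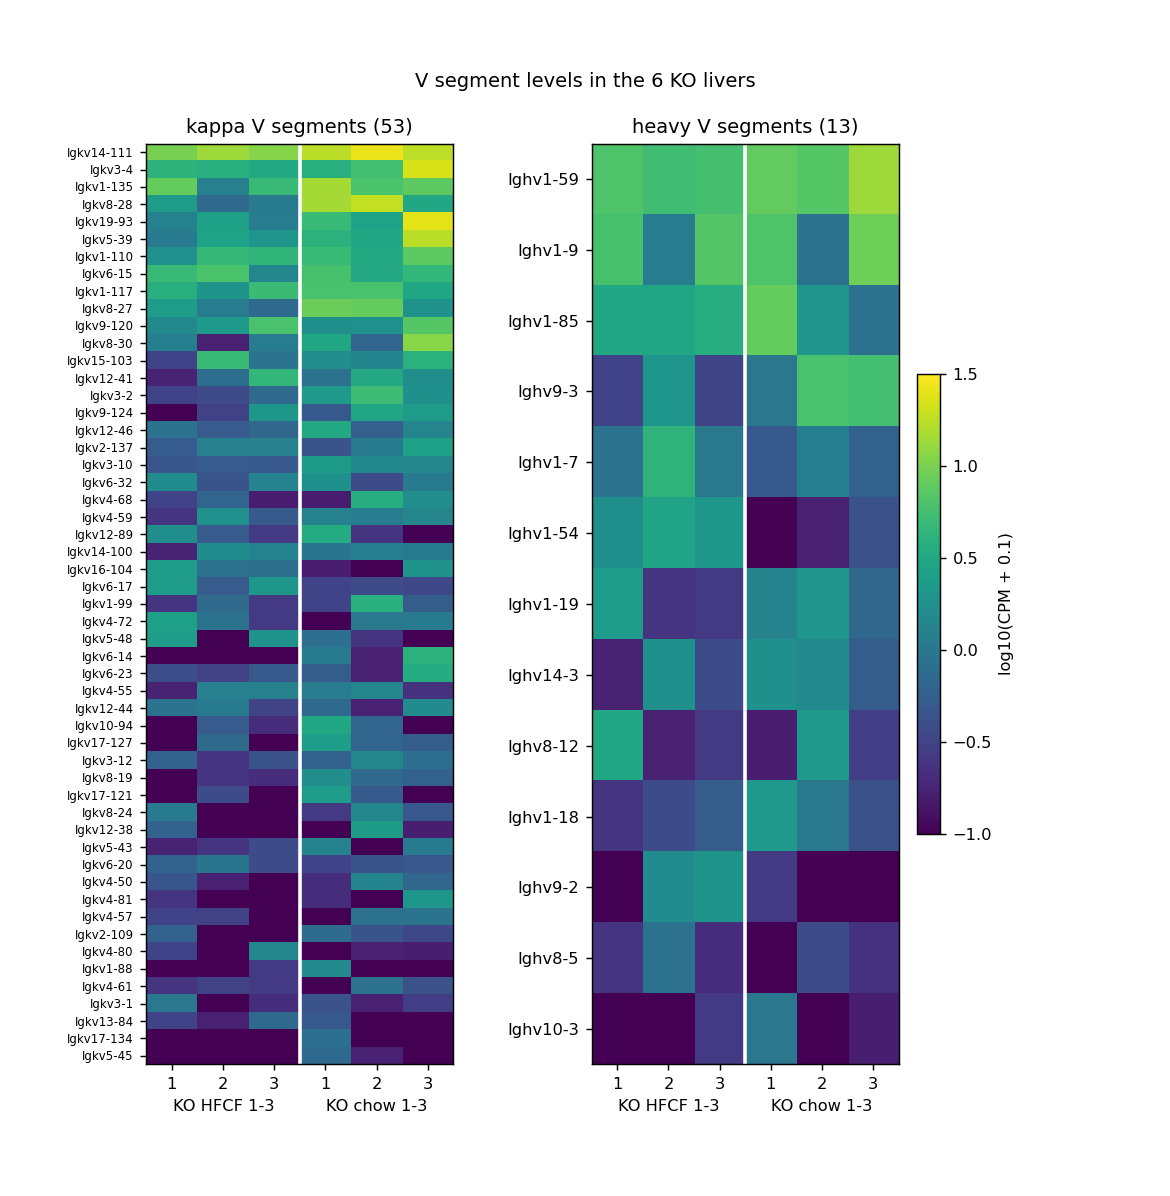
Levels of the 53 kappa and 13 heavy V segments in the 6 KO livers, as log10(CPM + 0.1), sorted by summed level; the 3 columns left of the white line are KO HFCF livers and the 3 right of it KO chow livers. Igkv14-111 and Ighv1-59 are high in every KO liver, while Igkv19-93 is bright in 1 KO chow liver and Ighv1-54 in the KO HFCF livers.

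In WT livers no diet difference passed the test without the replicate number as a block, and with it Ighg1 alone did. Of the 45 members that passed the filter 0 were called (against 7.76% of all genes up and 5.9% down), as was also the case for the 78 with no filter (7.26% up and 5.24% down), with DESeq2 and with limma voom. The groups did not overlap for 3 members lower on HFCF (14.6% of all rows) and 0 higher (15.3%). At an unadjusted p under 0.05, 0 of the 45 were higher and 3 lower, namely Ighg1, Iglc3 and Igj. Over all 14736 genes tested, 2237 were higher and 1979 lower at that level. Ighg1 had 0, 1 and 0 counts in WT HFCF livers and 2, 3 and 5 in WT chow livers, a ratio of 0.0897 with an exact 95% counting interval of 0.00207 to 0.630 (edgeR adjusted p = 0.0646). With the replicate block its log2 ratio was -3.05 and it passed (edgeR adjusted p = 0.0433). Igj had 0.910, 0.695 and 0.515 CPM in WT HFCF livers and 1.22, 0.920 and 1.38 in WT chow livers, with a log2 ratio of -0.71 ± 0.31 (edgeR adjusted p = 0.144). Igkc was at -0.42 ± 0.26 (edgeR adjusted p = 0.306) and Ighm at 0.27 ± 0.40 (edgeR adjusted p = 0.697).

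The diet effects in KO and WT were not shown to differ. No member was called for the interaction by edgeR, where 0.794% of all genes tested were, and neither DESeq2 nor limma voom called one. At an unadjusted p under 0.05, 0 of the 45 members tested were higher and 2 lower (Igkc and Ighm). Over all 14736 genes tested, 842 were higher and 1103 lower at that level. At the WT counts given above, a difference of diet effects was not detectable at this depth for most V segments.

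Several genes marking B cells rose in KO livers on chow. Of 14 tested B cell surface and identity genes 2 rose in KO on HFCF, near the 10.6% of all genes, and 8 on chow, where 9.72% of all genes rose, with median log2 fold changes of 0.55 and 1.36 over the list. The shares of all genes called, which also apply to the lists that follow, were 10.6% up and 8.52% down on HFCF, 9.72% up and 5.82% down on chow, 1.47% up and 1.18% down for the diet in KO, and 7.76% up and 5.9% down for the diet in WT. Their summed level was 33.1 to 38.3 CPM in KO HFCF, 24.5 to 26.0 in WT HFCF, 36.8 to 40.1 in KO chow and 19.5 to 24.3 in WT chow livers. Cd22, an inhibitory coreceptor, averaged 3.17 ± 0.31 CPM in KO HFCF livers and 1.76 ± 0.59 in WT HFCF livers (log2 fold change 0.83 ± 0.24, edgeR adjusted p = 0.0255), and 3.72 ± 0.38 in KO chow livers and 1.34 ± 0.35 in WT chow livers (1.47 ± 0.25, edgeR adjusted p = 0.00177). Cd79b, a signalling chain of the B cell receptor, rose on chow (1.39 ± 0.28, edgeR adjusted p = 0.00515), as did Ms4a1, which encodes CD20 (1.61 ± 0.36, edgeR adjusted p = 0.00983).

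Of 12 tested plasma cell and antibody secretion genes 8 rose in KO on HFCF and 7 on chow. Irf4, a transcription factor needed for plasma cells, averaged 3.38 ± 0.21 CPM in KO HFCF livers and 0.689 ± 0.093 in WT HFCF livers (log2 fold change 2.27 ± 0.25, edgeR adjusted p = 4.79e-05), and 6.21 ± 0.81 in KO chow livers and 0.586 ± 0.26 in WT chow livers (3.38 ± 0.25, edgeR adjusted p = 2.9e-06). It was the 1 gene of that list that changed with diet in KO, with a fall of 0.88 ± 0.19 (edgeR adjusted p = 0.0243). Slamf7, a surface receptor of plasma cells, rose by 1.75 ± 0.28 on HFCF (edgeR adjusted p = 0.000817) and 2.71 ± 0.31 on chow (edgeR adjusted p = 0.000101). Pou2af1, a coactivator in B cells, rose by 1.92 ± 0.37 on HFCF (edgeR adjusted p = 0.00292) and 2.91 ± 0.36 on chow (edgeR adjusted p = 0.000189). Sdc1, a plasma cell surface proteoglycan that hepatocytes also express, rose on HFCF (0.58 ± 0.12, edgeR adjusted p = 0.00437) and had a log2 ratio of -0.05 ± 0.12 on chow (edgeR adjusted p = 0.806). The summed level of the list, in which such shared genes weigh most, was 760 to 791 CPM in KO HFCF, 575 to 605 in WT HFCF, 731 to 782 in KO chow and 692 to 760 in WT chow livers.

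Markers of other cells moved as well. Of 8 tested T cell markers 6 rose in KO on each diet and 1, Themis, fell on HFCF. Their summed level ranged from 13.7 to 20.4 CPM in KO HFCF livers, 34.3 to 65.4 in WT HFCF, 9.32 to 16.2 in KO chow and 5.12 to 7.44 in WT chow livers, the WT HFCF sum being mostly Themis at 41.9 ± 17 CPM. Of 7 tested Kupffer cell markers 6 rose in KO on HFCF and 3 on chow, with summed levels of 686 to 719 CPM in KO HFCF, 289 to 573 in WT HFCF, 475 to 483 in KO chow and 302 to 344 in WT chow livers. Of 8 tested hepatocyte markers 2 rose and 1 fell in KO on HFCF, and 0 rose and 1 fell on chow, with summed levels of 44922 to 64472 CPM over the 12 livers. The part of these cells in the immunoglobulin result was not tested.

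Of 6 tested B lineage survival ligands, chemokines and receptors, Cd40 and Cxcr4 rose in KO on both diets and Cxcl12 on HFCF. Cxcl13, a chemokine that attracts B cells, fell with HFCF in KO by 2.50 ± 0.38 (edgeR adjusted p = 0.00333) and in WT by 2.81 ± 0.44 (edgeR adjusted p = 0.00123), with 0.587 ± 0.03 CPM in KO HFCF, 0.319 ± 0.27 in WT HFCF, 3.39 ± 1.1 in KO chow and 2.39 ± 0.71 in WT chow livers. Of 9 tested antibody receptor and transport genes 4 rose and 2 fell in KO on HFCF, and 2 rose and 1 fell on chow. Pigr, the receptor that carries polymeric antibody into bile in rodents, averaged 1026 ± 47.3 CPM in KO chow livers and 1643 ± 171 in WT chow livers (log2 fold change -0.68 ± 0.13, edgeR adjusted p = 0.00306). Of the recombination and switching genes 3 were tested, and of them Bcl6, a repressor that hepatocytes also express, fell in KO on HFCF (-2.28 ± 0.52, edgeR adjusted p = 0.00783) and with HFCF in KO (-2.46 ± 0.52, edgeR adjusted p = 0.0233).

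The 10 rows outside the rule whose log2 CPM followed the summed immunoglobulin level most closely over the 12 livers were Rian, Gm16814, Gm16637, Meg3, 2010001M09Rik, Mirg, Gm16747, Gm16694, Gm16734 and Gm9740. They were ranked by Pearson's r among 13325 rows, a ranking set mainly by the gap between genotypes. Within the 6 KO livers r was 0.97 for 2010001M09Rik, whose identifier GENCODE pairs with Mzb1, a chaperone of antibody-secreting cells, 0.94 for Meg3, 0.80 for Rian and 0.39 for Mirg. 2010001M09Rik averaged 3.69 ± 0.28 CPM in KO HFCF livers and 0.185 ± 0.10 in WT HFCF livers, and 6.25 ± 0.62 in KO chow livers and 0.164 ± 0.038 in WT chow livers. Rian averaged 41.4 ± 11.4 CPM in KO HFCF livers and 0.332 ± 0.13 in WT HFCF livers, and 60.6 ± 9.1 in KO chow livers and 0.234 ± 0.10 in WT chow livers. The livers share genotype and diet, so these values describe a shared pattern and nothing more. The 6 rows with provisional Gm symbols lie on immunoglobulin segments of GENCODE.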

How the data were processed

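Total RNA from 12 livers was made into stranded libraries after ribosomal RNA removal, per the labels' protocols. A single deposited table holds read counts per gene and library and FPKM, which the authors derived. For entries with at least 20 counts, FPKM matched count over length and 1 constant per library, within a relative deviation of 2.19e-08. Entries with fewer counts were not checked. Which aligner and counter were used, and whether counting was stranded, is not given in the sources used here. The genome build is named as mm10 in the submitters' processing notes. Start positions are printed 1-based.

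Members and lists were chosen with earlier results of these data known. The named members were the constant genes and Igj, the 6 V segments of each locus with the highest mean FPKM, and the 4 largest called rises and falls of each contrast among members averaging at least 0.5 CPM. From each list up to 4 called genes with the lowest adjusted p could be named.

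Genes were kept by filterByExpr (minimum count 10, minimum total 15), normalized with TMM factors, then tested by quasi-likelihood in edgeR 4.0.16 (R 4.3.3) on 4 group means over 12 libraries, with calls at a Benjamini-Hochberg adjusted p under 0.05. The pipeline was also run on simulated data. Changes were set there only in genes averaging at least 1 CPM, with the same dispersion for every gene. That run therefore says little about members near 0 counts or with a wide spread. Sums, shares and diversities were described without a test. A member with 0 counts in a group was counted as 3 there, members with 1 to 3 carry exact 95% counting intervals, and these and the Wilson intervals cover counting error only. Depth was 13967116 to 18324134 counts per library. No sequencing batch is given in the labels. Replicate numbers come from the labels. Same-numbered livers of WT HFCF and WT chow correlated weakly in their deviations from group means (r = 0.105, 0.2145 and 0.1261). In no other comparison did all 3 pairs exceed 0.1. Livers with different numbers reached r = 0.2067 (KO HFCF replicate 3 with WT chow replicate 2), and the labels state no pairing. The main test used no pairs, and the replicate alternative applied the number over all 12 libraries. Nothing states how mice were caged or bred, so p-values measure the spread between these 12 livers. Alternatives were RLE and upper quartile scaling, TMM without immunoglobulin rows, no filter, a stricter filter (at least 1 CPM in 6 libraries), the replicate number as a covariate, DESeq2 1.42.0, limma voom (limma 3.58.1), the compared groups alone, each library left out and V and J rows summed per locus. Identity was aligned with Biopython 1.88, and figures drawn with matplotlib 3.10.9.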

Additional observations from a re-analysis of the deposited data

Results flagged for a closer look

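Outside the symbol rule, 49 rows with provisional symbols lie on annotated immunoglobulin genes of GENCODE M21 on the same strand, and they are not counted among the members. Of them 6 stand among the 10 rows that followed the summed immunoglobulin level most closely. They are listed here because they carry signal in KO livers far above WT livers. Their summed counts were 3496 in KO HFCF livers and 35 in WT HFCF livers, and 7613 in KO chow livers and 33 in WT chow livers. The members themselves summed to 35736 in KO HFCF, 393 in WT HFCF, 71836 in KO chow and 384 in WT chow livers. The row with the highest level, Gm16637, lies at the position of Igkv10-96 and had 247, 433 and 319 counts in KO HFCF livers and 2, 1 and 1 in WT HFCF livers, and 517, 422 and 638 in KO chow livers and 2, 0 and 0 in WT chow livers. That exceeds Igkv14-111 in every KO liver. Gm16694 at Ighv1-4 (124, 83 and 239 counts in KO HFCF livers, and 423, 219 and 666 in KO chow livers) exceeds Ighv1-59 in every KO liver. The statements above on leading segments, on summed levels of V classes and on shares of V counts therefore hold for the named rows and not for the whole repertoire. The row AI324046 lies at Ighg3.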

How the results depend on the processing

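The count of members higher in KO on HFCF, 39, was 16 with the stricter filter, 24 when only the groups compared were fitted, 11 of 11 with V and J rows summed per locus and 59 with the 49 further rows, an alternative chosen after seeing the data. On chow the count of 40 was 16 with the stricter filter and 11 of 11 with summed rows. The stricter filter needs at least 1 CPM in 6 libraries and so tests fewer members, and summing leaves 11 rows. For the diet in KO the 8 calls became 3 with the stricter filter (Ighg1, Igkc and Igj), 4 with summed rows and 13 with the replicate number as a block. The replicate block gave 1 call for the diet in WT (Ighg1, edgeR adjusted p = 0.0433, against 0.0646 without the block). That block covered all libraries, and the labels do not say that same-numbered livers are pairs. Over all pairs of groups same-numbered livers correlated between -0.196 and 0.2145. Leaving out 1 library gave 31 to 36 calls for KO against WT on HFCF, 32 to 38 on chow, 6 to 12 for the diet in KO and 0 for the diet in WT and the interaction. For the alternatives in this paragraph the share of all genes called in the same fit is not given. A changed count therefore cannot be read as a change in the members. Over scalings and libraries left out, the summed levels were 757 to 801.0 CPM in KO HFCF, 6.98 to 9.46 in WT HFCF, 1381 to 1539 in KO chow and 8.36 to 9.73 in WT chow livers. Of the values of named members under an alternative, 1033 kept direction and call, 24 lost the call, 15 gained it and 8 turned sign, and none of those 8 was called. For the diet in KO these were Ighg2c (-0.36 to 0.17 with 1 library left out, positive at 0.17 without KO HFCF replicate 1 and 0.15 without KO chow replicate 1), Ighv1-9 (-0.71 to 0.32, positive at 0.23 without KO HFCF replicate 2 and 0.32 without KO chow replicate 3) and Ighv1-85 (-0.69 to 1.24, positive at 1.24 without KO chow replicate 1, and 0.17 with the replicate block and 0.38 with limma voom). For the diet in WT Ighm ranged from -0.0605 without WT HFCF replicate 1 to 0.53 without WT HFCF replicate 3. Causes were not tested where none is named. Low member counts limit the WT livers most, whose libraries held 87 to 186 of them.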
